A study of Mus musculus with 18 samples.

Results

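Hox paralogue groups 3 and 4 are represented in the mouse genome by 7 genes: Hoxa3, Hoxb3 and Hoxd3 in group 3, and Hoxa4, Hoxb4, Hoxc4 and Hoxd4 in group 4. They were taken as the rows of the deposited gene table whose Ensembl identifier carries one of these symbols, which gave 7 of 53465 identifiers, and all 7 passed the filter on low counts in every comparison. RNA was sequenced from 18 libraries of 9 mouse embryos at embryonic day 9, each labelled with 20 to 24 somites. Every embryo was cut into a posterior piece, made of the axial bud and the youngest somites, and an anterior piece, made of the remaining somite-bearing axis. The 5 control embryos gave the anterior control and posterior control groups, and the 4 embryos with conditional loss of both Meis1 and Meis2 through Delta1Cre (double knockout, DKO) gave the anterior DKO and posterior DKO groups. The labels do not give the alleles or the Cre status of the controls. Delta1 (Dll1) is a Notch ligand gene known for its activity in the presomitic mesoderm, so the pieces can hold cells in which the Cre was never active. Each library comes from a piece of a single embryo and mixes all tissues of the axis.

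Hox genes encode homeodomain transcription factors that are laid out in 4 clusters, and their order along a cluster matches the order in which they are switched on along the head-to-tail axis. Groups 3 and 4 are known for their anterior borders in the hindbrain and neck, where they shape the pharyngeal arches, the caudal hindbrain and the first cervical vertebrae. Several of them respond to retinoic acid through receptor binding sites in the clusters. Meis proteins belong to the TALE class of homeodomain proteins, bind DNA with Pbx and Hox partners, and act in the hindbrain both beside Hox proteins and on the enhancers of Hox genes. The study's stated aim was to find Meis targets in skeletal patterning along the axis, and the comparison bearing on groups 3 and 4 is whether their level differs with genotype in either piece.

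The 250 bases before the RefSeq start site (GRCm38.p6) are shown for Hoxb4, which was lower in the posterior pieces and is the gene whose window lies wholly outside its own annotated model. Capitals mark a match on either strand to AGGTCA, the short site bound by retinoid receptors. The interval is chr11:96318017-96318266 (+ strand).
Hoxb4: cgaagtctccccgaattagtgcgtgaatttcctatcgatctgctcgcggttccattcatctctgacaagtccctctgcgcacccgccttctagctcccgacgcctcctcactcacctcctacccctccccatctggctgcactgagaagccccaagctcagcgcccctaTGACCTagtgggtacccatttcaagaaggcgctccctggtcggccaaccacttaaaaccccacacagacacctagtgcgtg
The match begins 81 bases before the start, as TGACCT, which is AGGTCA read on the opposite strand. The RefSeq table held such windows for 5 of the 7 genes (not for Hoxb3 and Hoxa4). In the GENCODE annotation the windows of Hoxa3 and Hoxc4 lie wholly within exons of those genes, that of Hoxd4 lies within an intron of its gene, and 66 of the 250 bases of the Hoxd3 window are exonic, so these windows are not all upstream sequence. AGGTCA was present in 4 of these 5, Hoxd3, Hoxb4, Hoxc4 and Hoxd4, against 13.8% of 27025 promoter windows of the same length. TGACAG, the core bound by Meis proteins, was present in Hoxa3 alone, against 15.97% of windows, and TGATNNAT, a joint Pbx and Hox motif, in none of the 5, against 7.91%. CCAAT was present in Hoxd3 and Hoxd4, against 34.5% of windows, and TATAAA in Hoxd4, against 12.97%. The Hoxb4 window holds 1 match to the 5 motifs searched, so no matches overlap in it. A match describes the letters only.

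The libraries summed to between 12.7 and 38.2 megacounts (M). The targeted genes kept much of their count in the DKO libraries. Meis1 averaged 125 ± 8.64 CPM (counts per megacount on a scale shared by all libraries; SD, n = 5) in anterior control and 102 ± 9.50 (n = 4) in anterior DKO, and Meis2 averaged 190 ± 10.004 and 143 ± 11.3. In the posterior pieces Meis1 averaged 84.4 ± 15.2 in control and 57.5 ± 11.8 in DKO, and Meis2 143 ± 16.7 and 99.4 ± 11.3. Meis2 did not overlap between genotypes in either piece, whereas Meis1 overlapped in the posterior pieces. Gene-level counts can include transcripts that lack a deleted exon. The 10 axial bud markers summed to 27.0 to 33.8 CPM in the anterior control and 378 to 707 CPM in the posterior control libraries. Both libraries of control embryo 1 went against their sex label. Without that embryo the number of group 3 and 4 genes past the threshold stayed at 0 in both comparisons of genotype and at 4 between the control pieces.

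Hoxd3 and Hoxd4 need a separate word before their values are read, because the annotation places overlapping gene models on them. Hoxd3 (chr2:74711927-74748442, + strand) shares 62.3% of its exon bases with other models on its own strand, and Hoxd4 (chr2:74711929-74729160, + strand) shares 52.3%. Most of this is due to Gm28230 (chr2:74726728-74747918, + strand), a protein-coding model with 1 transcript that joins exons of both genes. Gm28230 shares 2225 bases with Hoxd3 and 1154 with Hoxd4, and only 148 of its 3527 exon bases lie outside the exons of both. Most reads of this locus could therefore have been divided among the models by estimation rather than by a unique position. Hoxa4 (chr6:52189671-52191753, - strand), Hoxb4 (chr11:96318267-96321638, + strand), Hoxb3 (chr11:96323326-96347930, + strand) and Hoxc4 (chr15:103018934-103036852, + strand) share no exon base with another model on their strand, and Hoxa3 (chr6:52169062-52213336, - strand) shares 8.01%.

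Between the pieces of control embryos, Hoxa4, Hoxb4 and Hoxd3 were lower in the posterior piece and Hoxc4 was higher, while Hoxa3, Hoxb3 and Hoxd4 did not pass the test. Thus 4 of the 7 genes changed (1 higher, 3 lower), where 25.4% of the 15294 genes tested were called (12.1% higher and 13.3% lower). In DKO embryos 4 of 7 were called in these directions as well, against 18.5% of 15777 genes (8.76% higher and 9.70% lower), and by name they were Hoxa4, Hoxb4, Hoxd3 and Hoxc4 again. The regional comparisons of the genotypes use separate embryos. In such bulk samples, fewer cells of a type and less RNA per cell cannot be told apart.

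**Figure D1:**
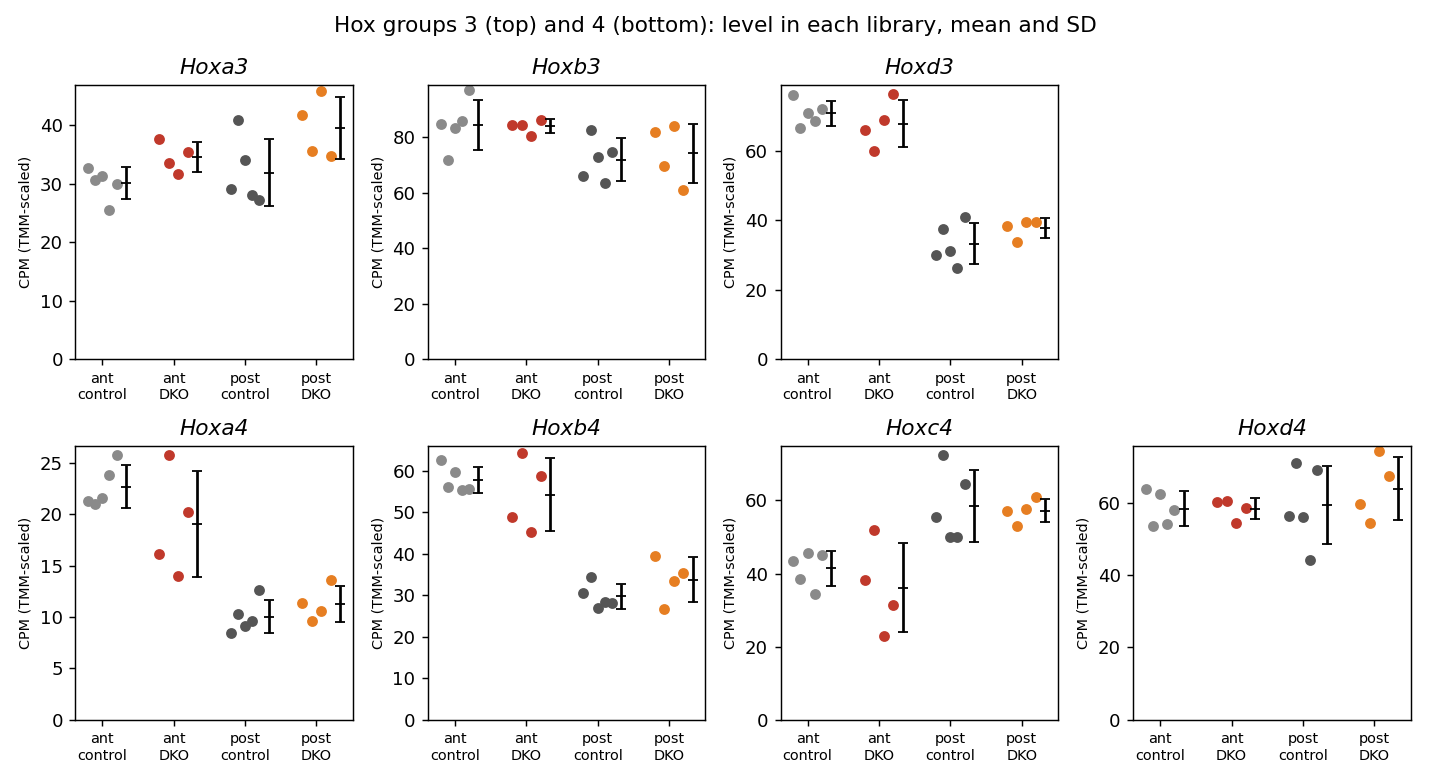
Level of each gene in CPM (vertical axes, from 0) in every library of the 4 groups, with the group mean and SD as a bar beside the points. Hoxd3, Hoxa4 and Hoxb4 are lower in both posterior groups, Hoxc4 is higher there, and DKO and control points overlap for all 7 genes in both pieces.

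Hoxa4, a regulator of cervical vertebral identity, was the least abundant of the 7 by CPM in every group. Its level in anterior control embryos 1 to 5 was 21.3, 21.0, 21.6, 23.8 and 25.8 CPM, and in the posterior control libraries of those embryos it was 8.43, 10.3, 9.12, 9.65 and 12.6 CPM. The groups did not overlap, as was so for 10.7% of all genes in that direction. The log2 fold change, posterior against anterior, was -1.19 (SE 0.110, adjusted p = 6.43e-06). In DKO embryos 1 to 4 it was 16.2, 25.8, 14.02 and 20.3 CPM in the anterior and 11.4, 9.59, 10.6 and 13.7 CPM in the posterior pieces. The log2 fold change was -0.75 (SE 0.190, adjusted p = 0.0196), and the call was lost without embryo DKO 1 (adjusted p = 0.0615) or DKO 2 (0.0857).

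Hoxb4, known from mouse mutants for its part in forming the axis vertebra and studied as a regulator of blood stem cells, did not overlap between the pieces either. The 5 anterior control libraries held 62.5, 56.2, 59.6, 55.4 and 55.5 CPM, and the posterior control libraries 30.5, 34.5, 27.0, 28.4 and 28.0 CPM. The log2 fold change was -0.96 (SE 0.0686, adjusted p = 8.12e-07). In DKO embryos the anterior values were 48.9, 64.1, 45.1 and 58.7 CPM and the posterior values 39.6, 26.7, 33.5 and 35.3 CPM, again without overlap (12.7% of all genes in that direction), and the log2 fold change was -0.68 (SE 0.138, adjusted p = 0.00588). This call held without each DKO embryo in turn (largest adjusted p = 0.0306).

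Hoxc4, the only group 4 gene of the HoxC cluster, moved in the other direction. Anterior control libraries had 43.5, 38.4, 45.6, 34.5 and 45.1 CPM, and posterior control libraries 55.3, 72.5, 49.99, 50.04 and 64.5 CPM. Each posterior value exceeded each anterior one, as was so for 9.42% of all genes. The log2 fold change was 0.50 (SE 0.113, adjusted p = 0.00560). In DKO embryos the anterior libraries spread over 38.4, 51.8, 22.8 and 31.5 CPM, while the posterior ones lay at 57.0, 53.1, 57.7 and 60.8 CPM, above all of them (10.9% of all genes). The log2 fold change in DKO was 0.66 (SE 0.196, adjusted p = 0.0404), and it no longer passed without embryo DKO 1 (0.146), DKO 3 (0.0883) or DKO 4 (0.164).

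Hoxd3, which acts with Hoxa3 in forming the atlas, had 76.2, 66.7, 71.1, 68.7 and 72.3 CPM in anterior control and 30.1, 37.6, 31.2, 26.4 and 40.9 CPM in posterior control libraries. The groups did not overlap, and the fitted difference was -1.10 on the log2 scale (SE 0.102, adjusted p = 6.59e-06). Anterior DKO libraries held 66.2, 60.1, 68.9 and 76.6 CPM and posterior DKO libraries 38.5, 33.8, 39.5 and 39.7 CPM, and the fitted log2 difference was -0.84 (SE 0.0846, adjusted p = 8.54e-05). The overlapping model Gm28230 did the reverse. It was at 23.8, 25.7, 23.7, 19.5 and 28.4 CPM in anterior control and 55.2, 64.4, 51.5, 40.3 and 60.7 CPM in posterior control libraries, and its log2 difference was 1.17 (SE 0.126, adjusted p = 2.16e-05).

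Adding the counts of Gm28230 to Hoxd3 ended the regional difference. The sum averaged 95.2 ± 5.25 CPM (n = 5) in anterior control and 87.7 ± 14.7 in posterior control libraries, and refitting with the sum gave a log2 fold change of -0.12 (adjusted p = 0.447). In DKO embryos the sum averaged 96.8 ± 7.06 CPM (n = 4) and 93.1 ± 14.3, with a log2 fold change of -0.05 (adjusted p = 0.795). Hoxd4 did not differ by its own count, with 63.8, 53.6, 62.5, 54.0 and 57.8 CPM in anterior control and 56.2, 70.9, 56.1, 44.3 and 68.8 CPM in posterior control libraries (log2 fold change 0.02, 95% interval -0.22 to 0.27). Joined with Gm28230 it was higher in the posterior piece in controls (0.46, adjusted p = 0.00728) and in DKO embryos (0.45, adjusted p = 0.0130). With all 3 models summed, the locus held 154 ± 9.11 CPM in anterior control and 147 ± 25.6 in posterior control, and the log2 fold change was -0.06 (adjusted p = 0.725). The regional fall of Hoxd3 thus holds for its own estimated count and not for any sum tested here, and which transcript the shared reads came from was not tested.

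**Figure D2:**
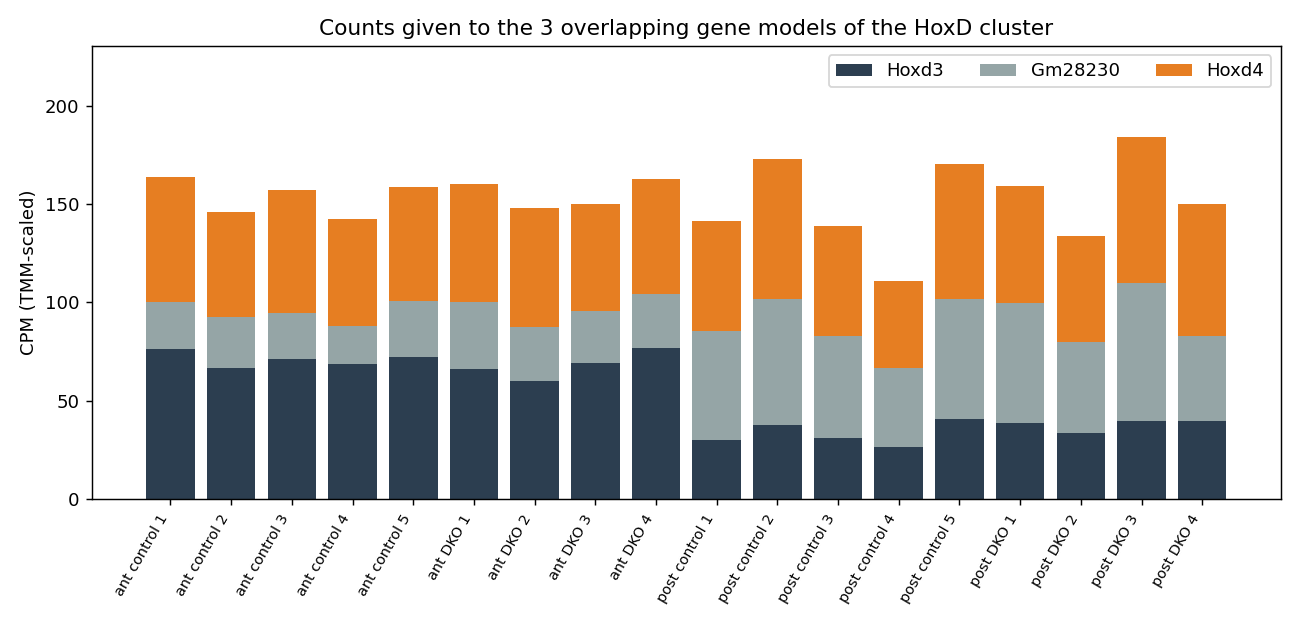
Stacked CPM (vertical axis, from 0) of Hoxd3, Gm28230 and Hoxd4 in each of the 18 libraries (horizontal axis). The Hoxd3 part is smaller and the Gm28230 part larger in the posterior libraries, while the height of the stack runs from 142 to 164 CPM in anterior control and from 111 to 173 CPM in posterior control.

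The genes of group 3 other than Hoxd3 showed little difference between pieces. Hoxb3, which patterns the caudal hindbrain, ranged from 71.6 to 97.0 CPM in anterior control and from 63.5 to 82.7 CPM in posterior control libraries, and these ranges overlap. Its log2 fold change was -0.23 (SE 0.0859, adjusted p = 0.0684), and the posterior value of control embryo 2 was the highest of its group. Without that embryo the difference passed the threshold (-0.34, adjusted p = 0.00454), as it did with upper quartile scaling (adjusted p = 0.0490). The antisense transcript Hoxb3os covers 52.9% of the Hoxb3 exon bases, and the use of strand in counting is not given in the sources used here, so how far reads of this pair were separated is unknown. Hoxb3os averaged 30.1 ± 6.57 CPM in anterior control and 25.2 ± 2.90 in posterior control.

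Hoxa3, needed for the thymus, the parathyroid and the third pharyngeal arch, averaged 30.0 ± 2.74 CPM in anterior control and 31.9 ± 5.69 in posterior control, with a log2 fold change of 0.09 (95% interval -0.16 to 0.33). In DKO embryos its difference between pieces was 0.19 (-0.03 to 0.41), that of Hoxb3 was -0.18 (-0.39 to 0.04) and that of Hoxd4 was 0.13 (-0.08 to 0.34). With each DKO embryo left out these ran from 0.07 (without DKO 3) to 0.25 for Hoxa3, from -0.26 to -0.09 (without DKO 4) for Hoxb3 and from 0.02 (without DKO 3) to 0.22 (without DKO 2) for Hoxd4. The intervals with all embryos do not reach the size seen for Hoxa4 or Hoxb4 in controls.

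The contrast between pieces was also present inside single embryos, where anterior and posterior libraries were matched by genotype, sex label and somite number. Hoxa4, Hoxb4 and Hoxd3 were lower in the posterior piece in 9 of 9 embryos, and Hoxc4 was higher in 9 of 9. For Hoxd3 this holds for its own estimated count, and the sum with Gm28230 was lower in 6 of 9. Hoxb3 was higher in the posterior piece in 2 of 9 embryos, Hoxd4 in 4 of 9 and Hoxa3 in 6 of 9. The Hoxa4 difference ranged from -1.33 to -1.02 log2 CPM in the 5 controls and from -1.42 to -0.41 in the 4 DKO embryos. For Hoxc4 it ranged from 0.13 to 0.92 in controls and from 0.04 to 1.33 in DKO embryos, with DKO 2 lowest and DKO 3 highest.

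**Figure D3:**
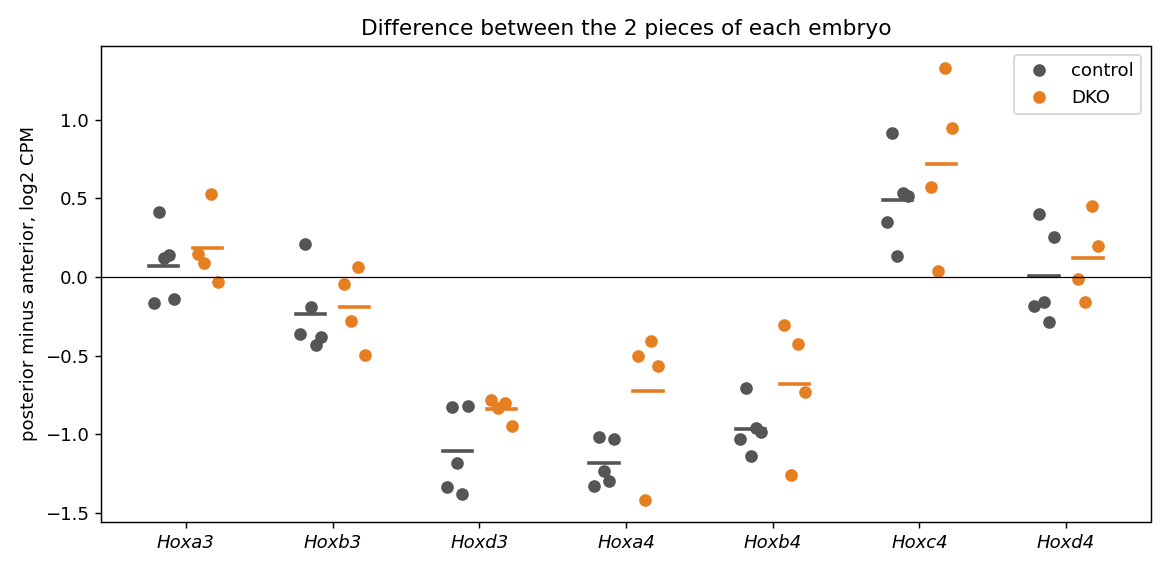
Posterior minus anterior log2 CPM of each embryo (points) for the 7 genes, with the mean of each genotype as a line. All points of Hoxd3 (its own count, without Gm28230), Hoxa4 and Hoxb4 lie below 0 and all points of Hoxc4 above it, and 3 of the 4 DKO embryos lie nearer 0 than every control for Hoxa4.

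The regional values of groups 3 and 4 sit between neighbours that behave differently in each cluster. In HoxA, Hoxa2 was lower in the posterior control pieces (log2 fold change -0.80, adjusted p = 0.000574) and Hoxa5 was higher (0.48, adjusted p = 0.00233). In HoxB, Hoxb5 fell like Hoxb4 (-1.05, adjusted p = 2.98e-06), and Hoxb2 did not pass (-0.16, adjusted p = 0.162). In HoxC, Hoxc5 was lower (-0.76, adjusted p = 0.000155), opposite to Hoxc4, although both genes lie side by side. Of the 16 genes of groups 9 to 13, 13 were tested and all of these were higher in the posterior piece in controls, as were all 5 of groups 7 and 8. Only 4 of the 16 genes of groups 9 to 13 passed the filter within the anterior pieces. The others tested here entered mainly through their posterior counts, so the filter itself favoured that direction. Group 1 held 2 genes called higher, Hoxb1 (1.68, adjusted p = 2.11e-06) and Hoxd1 (2.05). Calls lower in the posterior piece occurred in groups 2 to 5 and in no other group tested, and in group 3 the call was that of Hoxd3 alone, which no sum with its overlapping models kept.

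**Figure D4:**
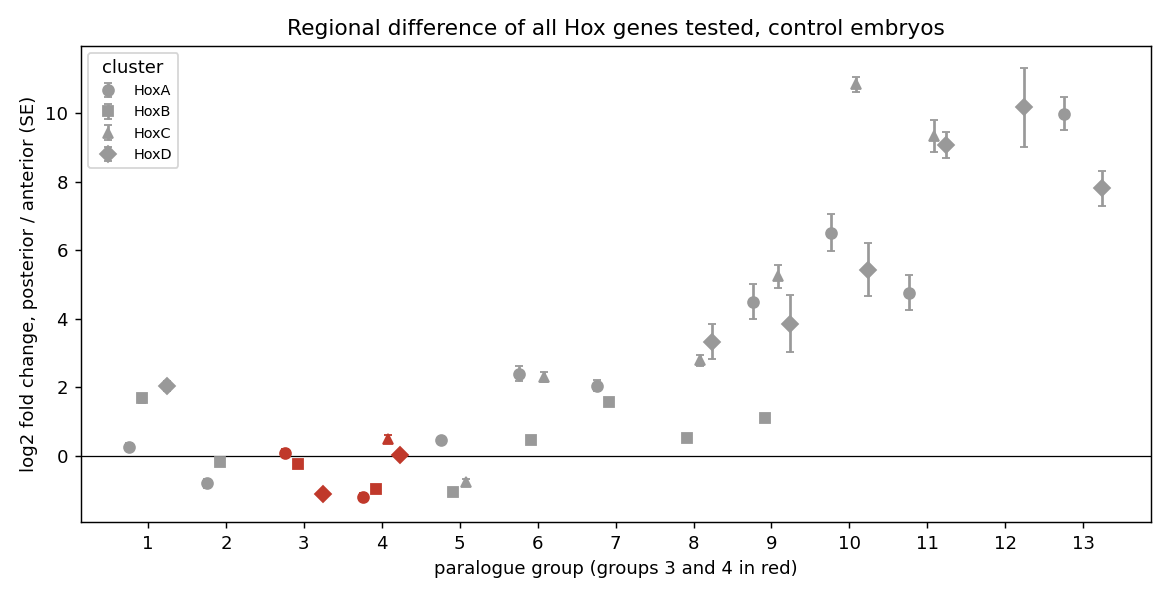
Log2 fold change of each tested Hox gene between posterior and anterior control pieces (vertical axis, bars are SE) by paralogue group (horizontal axis), with a symbol for each cluster and groups 3 and 4 in red. Groups 3 and 4 run from -1.19 to 0.50, and groups 6 to 13 are all above 0.

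Other tissue markers differed between the pieces too. The 12 neural tube markers summed to 647 to 775 CPM in anterior control and 301 to 420 CPM in posterior control libraries, with 11 of 12 called lower. The 8 neural crest markers went from 725 to 841 CPM down to 232 to 309 CPM, with 5 called lower. The 10 paraxial mesoderm markers summed to 502 to 619 CPM anterior and 588 to 759 CPM posterior, with 6 called higher and 3 lower. Lateral and intermediate mesoderm markers summed to 68.4 to 143 CPM anterior and 137 to 175 CPM posterior (6 of 8 called higher, 1 lower), surface ectoderm markers to 97.0 to 185 and 208 to 282 CPM (5 of 8 higher), and gut endoderm markers to 84.7 to 103 and 114 to 168 CPM (3 higher, 1 lower). Heart markers summed to 44.0 to 85.2 CPM anterior and 13.2 to 37.9 CPM posterior (3 called lower), and endothelium markers to 284 to 324 and 176 to 302 CPM (3 of 8 lower). Of the hindbrain markers 2 were called higher and 4 lower, and of the primitive erythroid markers 0 of 8 were called. The hindbrain list includes the Hox gene Hoxb1, which was 1 of the 2 called higher. In these control libraries 1 hindbrain marker was at 0 in all posterior pieces, and no other marker of the lists was at 0 throughout a group. Their part in the regional differences of Hoxa4, Hoxb4, Hoxc4 and Hoxd3 was not tested.

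Compared per kilobase of exon, which allows levels of different genes to be set side by side, the order in anterior control was Hoxb4 at 22.5 ± 1.22 CPM per kb, Hoxb3 at 19.9 ± 2.12, Hoxd4 at 19.8 ± 1.60, Hoxd3 at 16.9 ± 0.863, Hoxc4 at 16.1 ± 1.88, Hoxa4 at 14.3 ± 1.30 and Hoxa3 at 4.995 ± 0.456 (SD, n = 5). Each gene overlapped the next in this order except Hoxa3, which was below all others in every library. In posterior control Hoxc4 led at 22.8 ± 3.83 CPM per kb, followed by Hoxd4 at 20.1 ± 3.68, Hoxb3 at 16.9 ± 1.79, Hoxb4 at 11.6 ± 1.15, Hoxd3 at 7.93 ± 1.41, Hoxa4 at 6.29 ± 1.01 and Hoxa3 at 5.30 ± 0.946. Hoxb3 and Hoxb4 were separated there, as were Hoxb4 and Hoxd3, and the remaining neighbours overlapped. By this scale Hoxc4 made up 22.1% ± 1.55 of the group 4 level in anterior control and 37.4% ± 1.27 in posterior control, and Hoxb4 31.0% ± 1.34 and 19.2% ± 2.01. The order depends on the length used: with the longest coding transcript Hoxb3 was the first in anterior control at 26.5 CPM per kb, and Hoxa3 rose to the fourth place in posterior control at 12.3. The order and the shares also use the own estimated counts of Hoxd3 and Hoxd4, without Gm28230. In posterior control Hoxd4 averaged 59.3 CPM alone and 114 CPM with Gm28230, and no order was made with such sums.

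Between DKO and control embryos no change of any of the 7 genes was called, while the DKO libraries kept much of their Meis1 and Meis2 count. In the anterior pieces edgeR called 0 of 7, against 6 of 15238 genes (0.0394%), and in the posterior pieces 0 of 7, against 2 of 15936 (0.0126%). DESeq2 called 0 of 7 in each piece, against 296 genes of all in the anterior and 162 in the posterior pieces. At an unadjusted p under 0.05, 1 of 7 passed in each piece, Hoxa3 both times, where 13% and 11% of all genes did. Control and DKO libraries overlapped for all 7 genes in both pieces, while 5.08% of all genes in the anterior and 4.29% in the posterior pieces did not overlap.

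Hoxa3 was at 32.7, 30.7, 31.4, 25.5 and 29.9 CPM in anterior control and at 37.6, 33.5, 31.7 and 35.5 CPM in anterior DKO libraries. Of the 4 DKO values, 3 were above every control, and 1 lay within the controls. The log2 fold change was 0.20 (SE 0.0792, unadjusted p = 0.0256, adjusted p = 0.316). In the posterior pieces the controls held 29.1, 40.9, 34.1, 28.1 and 27.2 CPM and the DKO libraries 41.7, 35.6, 45.9 and 34.7 CPM. The control of embryo 2 lay inside the DKO range, and the log2 fold change was 0.31 (SE 0.130, unadjusted p = 0.0373, adjusted p = 0.451). Over the alternatives the adjusted p ran from 0.245 to 0.690 in the anterior and from 0.224 to 0.636 in the posterior pieces.

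Intervals for the other genes bound how large a change these libraries leave room for. In the anterior pieces the log2 fold change of Hoxb3 was -0.01 (95% interval -0.17 to 0.15), of Hoxd3 -0.06 (-0.21 to 0.08) and of Hoxd4 0.00 (-0.13 to 0.14). The other 3 genes of group 4 had wider intervals there: -0.25 (-0.59 to 0.09) for Hoxa4, -0.09 (-0.30 to 0.11) for Hoxb4 and -0.19 (-0.61 to 0.22) for Hoxc4. With each embryo left out in turn the anterior value of Hoxd3 ran from -0.13 without DKO 4 to -0.01 without DKO 2. The same values ran from -0.43 to -0.14 for Hoxa4, from -0.18 to -0.02 for Hoxb4 and from -0.41 to -0.03 for Hoxc4, the lowest without DKO 2 and the highest without DKO 3 for all 3 genes. In the posterior pieces the values were 0.04 (-0.18 to 0.27) for Hoxb3, 0.19 (-0.08 to 0.46) for Hoxd3, 0.18 (-0.14 to 0.49) for Hoxa4, 0.18 (-0.07 to 0.44) for Hoxb4, -0.03 (-0.27 to 0.21) for Hoxc4 and 0.11 (-0.19 to 0.41) for Hoxd4. The posterior value of Hoxd3 was 0.08 when summed with Gm28230 and 0.11 without control 4, that of Hoxa4 ran from 0.07 without DKO 4 to 0.27 without control 5, that of Hoxb4 from 0.10 without DKO 1 to 0.28 without DKO 2, and that of Hoxd4 from 0.01 without control 4 to 0.18 without control 2 or DKO 2. The median of the 7 was -0.06 in the anterior and 0.18 in the posterior pieces, beside 0.0001 and 0.01 over all genes tested. In the anterior pieces 2 of 7 values were above 0, as were 50% of all genes. In the posterior pieces 6 of 7 values were above 0, as were 52.4% of all genes. Among other Hox genes there, 5 of 5 in groups 1 and 2 and 4 of 6 in groups 5 and 6 were above 0. In groups 7 and 8 it was 4 of 5, and in groups 9 to 13 it was 12 of 15 tested.

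**Figure D5:**
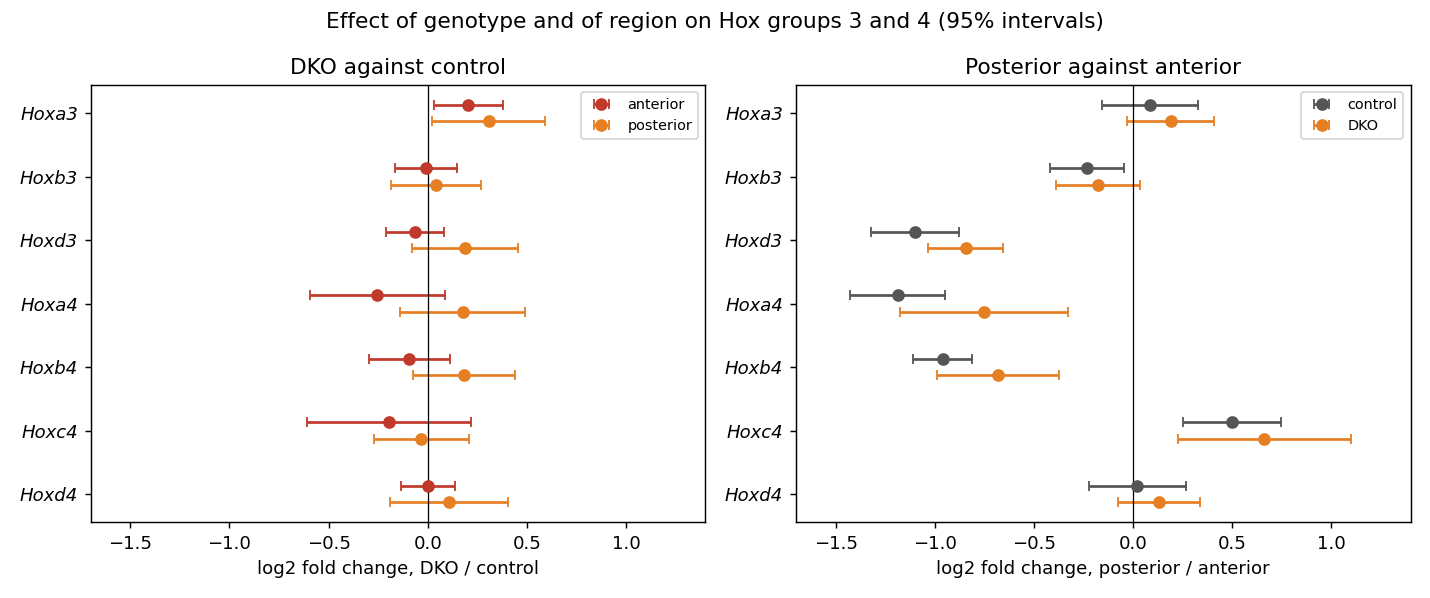
Log2 fold changes of the 7 genes with 95% intervals, DKO against control on the left (anterior and posterior pieces) and posterior against anterior on the right (control and DKO embryos). On the left the intervals of 6 genes include 0 and those of Hoxa3 lie just above it, and on the right Hoxd3, Hoxa4 and Hoxb4 lie below 0 and Hoxc4 above it in both genotypes.

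In the anterior DKO group the library of embryo 2 had the highest and that of embryo 3 the lowest value for all 4 genes of group 4. Embryo 2 is labelled male with 24 somites and embryo 3 female with 20 somites, the highest and lowest somite numbers of the DKO embryos. Whether the levels of these genes follow either label was not tested. With sex label and somite number as covariates the anterior log2 fold changes were -0.31 for Hoxa4, -0.11 for Hoxb4, -0.24 for Hoxc4 and 0.01 for Hoxd4, and 0 were called. The distance between DKO 2 and DKO 3 was widest for Hoxc4, at 51.8 and 22.8 CPM, and small for Hoxd4, at 60.4 and 54.2 CPM. Hoxc5, the neighbour of Hoxc4, was at 46.2 CPM in DKO 2 and 15.7 CPM in DKO 3, and Hoxa5 ranged from 22.0 to 35.1 CPM. In the control group the anterior Hoxc4 values stayed within 34.5 to 45.6 CPM. In group 3, DKO 3 was also the lowest library for Hoxa3 (31.7 CPM) and Hoxb3 (80.4 CPM), whereas Hoxd3 was lowest in DKO 2 (60.1 CPM), and DKO 2 was the highest for none of the 3. The SD of Hoxc4 was 12.2 CPM in anterior DKO and 4.82 in anterior control.

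The test of whether the genotype effect differed between pieces called 0 of the 7 genes and 0 of 16428 genes (0%) with edgeR, 567 of which (3.45%) had an unadjusted p under 0.05. DESeq2 called 10 genes and none of the 7. All 7 differences were above 0 (median 0.16), as were 51.7% of all genes. Other Hox genes leaned the same way, with 5 of 5 above 0 in groups 1 and 2 and 5 of 6 in groups 5 and 6. In groups 7 and 8 it was 4 of 5, and in groups 9 to 13 it was 13 of 15 tested. The 8 primitive erythroid markers were also all above 0 in this test (median 1.19, 7 with an unadjusted p under 0.05, 0 called), and their part in the values of the 7 genes was not tested. The largest differences among the 7 were 0.43 for Hoxa4 (SE 0.219, unadjusted p = 0.0648, adjusted p = 0.999), 0.28 for Hoxb4 (SE 0.154) and 0.25 for Hoxd3 (SE 0.144). Without embryo DKO 2 Hoxa4 stood at 0.68 and Hoxb4 at 0.47, without DKO 1 Hoxb4 stood at 0.14, and summing with Gm28230 left Hoxd3 at 0.06. Without embryo DKO 3 the values of Hoxa3, Hoxb3, Hoxc4 and Hoxd4 fell to between -0.04 and -0.01. So the smaller regional contrast of Hoxa4 in DKO embryos (-0.75 against -1.19 in controls) did not pass the test of the difference itself.

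Between genotypes 0 genes of the tissue marker lists were called in either piece. Neural tube markers summed to 805 to 910 CPM in anterior DKO against 647 to 775 CPM in anterior control, and to 354 to 480 CPM against 301 to 420 CPM in the posterior pieces, with 11 of 12 log2 fold changes above 0 in each. Paraxial mesoderm markers summed to 348 to 439 CPM in anterior DKO against 502 to 619 CPM, and to 406 to 615 CPM in posterior DKO against 588 to 759 CPM. In the anterior pieces the 8 neural crest markers summed to 778 to 1022 CPM in DKO against 725 to 841 CPM in control, with 7 of 8 above 0. At an unadjusted p under 0.05 there, 9 of 12 neural tube markers were higher, and 6 of 8 neural crest markers were higher and 1 lower. Of the 9 paraxial mesoderm markers tested there, 5 were lower and 1 higher. That threshold was passed by 13% of all genes. The 8 lateral and intermediate mesoderm markers summed to 40.3 to 69.9 CPM against 68.4 to 143 CPM, with 0 of 8 above 0, and the primitive erythroid markers to 1324 to 2230 CPM against 1044 to 5113 CPM, also with 0 of 8 above 0. Cervical and sclerotome genes summed to 394 to 489 CPM in anterior DKO against 549 to 617 CPM in anterior control, without overlap, with 3 of 12 above 0, 6 lower at an unadjusted p under 0.05 and 0 called. Gut endoderm markers there summed to 95.04 to 122 CPM against 84.7 to 103 CPM, and surface ectoderm markers to 111 to 182 CPM against 97.0 to 185 CPM (7 of 8 above 0). In the posterior pieces surface ectoderm markers summed to 292 to 355 CPM in DKO against 208 to 282 CPM in control (6 of 8 above 0), lateral and intermediate mesoderm markers to 88.3 to 141 CPM against 137 to 175 CPM, and primitive erythroid markers to 1795 to 3766 CPM against 1484 to 2468 CPM (8 of 8 above 0). At an unadjusted p under 0.05 there, 4 of 7 lateral and intermediate and 4 of 10 paraxial mesoderm markers tested were lower and 0 higher. For neural tube markers 3 were higher and 1 lower, for surface ectoderm 4 were higher and for primitive erythroid 5. That threshold was passed by 11% of all genes. Axial bud markers summed to 435 to 753 CPM in posterior DKO against 378 to 707 CPM (10 of 10 above 0), gut endoderm markers to 150 to 181 CPM against 114 to 168 CPM (7 of 8 above 0, 3 with an unadjusted p under 0.05) and endothelium markers to 170 to 257 CPM against 176 to 302 CPM (0 of 8 above 0). The cervical and sclerotome genes summed to 292 to 539 CPM in posterior DKO against 513 to 704 CPM, with 0 of 12 above 0, 7 with an unadjusted p under 0.05 and 0 called. No gene of the lists summed here was at 0 throughout a group. Of the other marker lists, 1 heart marker was at 0 in all posterior DKO libraries and 1 hindbrain marker in all posterior control libraries. The part of these tissues in the values of Hoxa3 or of any other group 3 or 4 gene was not tested.

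Genes that act on Hox transcription were read from lists of the retinoic acid pathway, the TALE partners and the Cdx factors. Of the 19 retinoic acid genes, 17 were tested in the anterior and 19 in the posterior pieces, and 0 were called between genotypes in either. Those with the smallest unadjusted p in the anterior pieces were Aldh1a2, the enzyme that makes retinoic acid in the trunk mesoderm (log2 fold change -0.97, adjusted p = 0.0641), and Cyp26b1, an enzyme that degrades it (-1.03, adjusted p = 0.0659). The receptor gene Rarb, itself a known retinoic acid target, stood at 0.00 (95% interval -0.15 to 0.15). In the posterior pieces the smallest unadjusted p belonged to Rbp4 (1.41, adjusted p = 0.322) and Rdh10 (-0.41, adjusted p = 0.369), which act in retinol transport and oxidation. Between control pieces 3 of the 18 retinoic acid genes tested were higher and 7 lower in the posterior piece. Log2 fold changes were 3.68 for Cyp26a1, 3.23 for Aldh1a3 and 1.87 for Rarg among the higher genes. The lower ones were Crabp1 (-2.17), Cyp26b1 (-2.09), Rarb (-1.57), Crabp2 (-1.24), Rxrg (-1.04), Rara (-0.62) and Rxra (-0.55).

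Of 7 TALE partners 0 were called between genotypes in either piece. Between control pieces 4 of 7 were lower in the posterior piece and 1 higher, and Pbx3 stood at -0.92 (adjusted p = 1.13e-05). The list of Cdx factors and hindbrain regulators held 5 genes called higher and 3 called lower of 10 tested between control pieces, and 0 between genotypes. Cdx2 and Cdx4, activators of trunk Hox genes in the axial bud, were called higher in the posterior control pieces (adjusted p = 5.64e-08 and 4.12e-08) and were not called between genotypes there (0.33, adjusted p = 0.554, and 0.06, adjusted p = 0.938). The antisense transcript Hoxaas3, whose span covers Hoxa4 and much of Hoxa3 on the opposite strand, rose from 7.03 ± 1.20 CPM in anterior control to 67.5 ± 19.1 in posterior control (log2 fold change 3.26, adjusted p = 2.03e-07).

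Across the 18 libraries, after removal of the 4 group means, the protein-coding genes most like each member were described by Pearson's r over 11811 genes. These libraries share embryos and scaling, so r is given without a test. Hoxc4 was closest to Hoxc5 (r = 0.897) and Hoxb8 (0.867), and Hoxa4 to C1d (0.895) and Hoxa5 (0.871). For Hoxb3 the closest was Ralgps1 (0.904), for Hoxd4 Slc25a27 (0.854), for Hoxa3 Zfp473 (0.839), for Hoxd3 Arv1 (0.817) and for Hoxb4 Zfp87 (0.803). Among the 7 genes, Hoxd3 and Hoxd4, which share exon bases, had the highest value (0.788), followed by Hoxa4 with Hoxc4 (0.665) and Hoxb4 with Hoxc4 (0.617). Without removal of group means Hoxa4 and Hoxb4 reached 0.933, whereas Hoxa4 and Hoxc4 fell to -0.467, their regional differences having opposite signs.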

How the data were processed

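Poly(A) RNA libraries (NEBNext kit) were read from a single end at 61 bases, per the labels. The authors deposited expected counts from RSEM, one value per Ensembl gene and library on GRCm38 and unscaled, per the submitters' processing notes, which also name CASAVA and cutadapt. Strand use in counting is not given in the sources used here. Symbols and coordinates came from GENCODE annotation of GRCm38, which held 53360 of 53465 identifiers. Expected counts were rounded and tested in R 4.3.3 with edgeR 4.0.16 (filterByExpr with minimum count 10 and total 15, TMM scaling, glmQLFit and glmQLFTest), with Benjamini-Hochberg adjustment over all genes tested and a threshold of 0.05. The code was tested on simulated counts. CPM used TMM factors of all 18 libraries, log2 CPM a prior count of 2, and per-kilobase levels the union of exons. Alternatives were other scaling (RLE, upper quartile), DESeq2 1.42.0, limma-voom (3.58.1), other filters, unrounded counts, covariates, all libraries in one fit, an embryo block, leaving out each embryo, and, chosen after seeing the data, sums over overlapping models. Pieces were paired to embryos by the labels of genotype, sex and somites. With group means removed, libraries of a pair correlated at 0.256 to 0.570 over genes and other embryos of a genotype at -0.283 to 0.0916. Named neighbours, list genes and most similar genes were taken from among those given by a written rule: cluster neighbours, overlapping transcripts, list genes past the threshold or with the smallest p, and the 2 most similar protein-coding genes. The genes and lists were chosen with earlier results of these data known. The p-values for genotype within a piece measure the spread between embryos. The main regional and interaction fits held no embryo term, so the 2 pieces of an embryo entered them as separate libraries. Only the embryo block took the pairing into account.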

Additional observations from a re-analysis of the deposited data

How the results depend on the processing

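No alternative called any of the 7 genes between genotypes or in the interaction, DESeq2 and the embryo block included, although DESeq2 called 296 genes of all in the anterior and 162 in the posterior pieces (6 and 2 with edgeR). Over all genes the anterior count was also 29 with limma-voom, 83 without a filter, 88 with covariates, 19 with all libraries in one fit and 1 to 57 with embryos left out (57 without DKO 2), and the posterior count 14 without a filter, 1 with a mean of at least 50 counts, 51 with all libraries in one fit and 24 without DKO 2. Between DKO pieces it was 2913, and 1728 without DKO 1. The number called between control pieces was 4, or 4 to 5 when each embryo was left out, 5 with upper quartile scaling and 3 with overlapping models summed; in DKO embryos it was 4, 2 to 3 when each embryo was left out (2 without DKO replicate 1), and 3 with models summed. The embryo block changed no call of the 7 genes (0 in the interaction and 4 in each regional comparison). Fewer embryos enter each left-out fit. Changes of sign occurred only in values that did not pass the test, apart from Hoxd3 with models summed. In the anterior comparison Hoxb3 was 0.00638 with limma-voom and -0.0653 to 0.0449 with embryos left out, Hoxd3 was 0.0143 with all models summed and 0.0241 with Gm28230, and Hoxd4 was -0.000203 when genes under 50 counts on average were dropped and -0.0292 to 0.0366 with embryos left out. In the posterior comparison embryos left out gave -0.0218 to 0.118 for Hoxb3 and -0.0907 to 0.0572 for Hoxc4. In the interaction they gave -0.0193 to 0.197 for Hoxa3, -0.0378 to 0.160 for Hoxb3, -0.00982 to 0.416 for Hoxc4 and -0.0111 to 0.206 for Hoxd4, and Hoxd4 with Gm28230 was -0.0125. Between control pieces they gave -0.0109 to 0.154 for Hoxa3 and -0.0818 to 0.0851 for Hoxd4, and Hoxd4 was -0.00108 with upper quartile scaling and -0.00495 with limma-voom. Between DKO pieces Hoxd3 was 0.0187 with all models summed. Where an alternative moved a value, the cause was not tested. The 4 to 5 embryos of each genotype limit the precision: the anterior interval of Hoxc4 spans -0.61 to 0.22.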
